A study of Mus musculus with 24 samples.

Results

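The bone morphogenetic protein (BMP) signalling genes and the inhibitor of DNA binding (ID) genes of mouse quadriceps femoris muscle are described here. They are 10 genes chosen by name among the 18669 genes of the count table: the ligands Bmp2, Bmp4 and Bmp6, the type I receptor gene Bmpr1a, the receptor-regulated Smad9, the inhibitory Smad6 and Smad7, and the targets Id1, Id2 and Id3. All 10 were found and all 10 passed the filter on low counts. The study asked how muscle RNA responds to an in vivo heat shock (HS) or to HSP990, an oral inhibitor of the chaperone HSP90, and whether a mutant huntingtin transgene or the loss of the transcription factor HSF1 alters these responses. RNA of 24 mice was sequenced, 2 in each of 12 groups. WT mice and R6/2 mice, which carry exon 1 of mutant human huntingtin as a transgene under the human huntingtin promoter and model Huntington's disease, were 12 weeks old. Hsf1-/- mice, homozygous for the loss of Hsf1, were 10 weeks old in the HS experiment and 8 weeks old in the HSP990 experiment, so that genotype and age cannot be told apart for them. For HS, isoflurane-anaesthetised mice were kept at 41.5 °C (core) during 15 min, while anaesthetised control mice lay on a pad at 36.9 °C during 21 min. HSP990 mice received 12 mg/kg by oral gavage and vehicle mice received saline by gavage, with no anaesthesia described for either. Muscle was taken 4 h after each treatment, and all mice were bred on a mixed CBA and C57BL/6 background.

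BMP ligands bind pairs of type I and type II serine/threonine kinase receptors. The receptors phosphorylate SMAD1, SMAD5 and SMAD9, which enter the nucleus with SMAD4 and switch on target genes, among them the ID genes and the inhibitory Smad6 and Smad7 that damp the pathway. ID proteins hold back basic helix-loop-helix factors such as the E proteins and the myogenic factors, and in adult muscle BMP signalling is known for maintaining fibre mass and acting on satellite cells and vessels.

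The libraries held 22450177 to 46599238 counts. Levels are given as CPM, counts relative to library size after TMM scaling, which corrects for differences in RNA composition. The top 20 genes by abundance made up 14.66 to 21.92% of an R6/2 library but 32.72 to 40.05% of any other library, with TMM factors of 1.19 to 1.395 against 0.8079 to 0.954. The defining markers of skeletal muscle fibres summed to 39560 to 279300 CPM. The Hsf1 row, which checks the knockout, stood at 52.94 to 68.55 CPM in WT, 45.28 to 53.71 CPM in R6/2 and 21.08 to 28.96 CPM in Hsf1-/- mice, so reads remained on that row in the knockout. The 4 Y-linked genes summed to 162.6 to 229.9 CPM in all Hsf1-/- mice and in all vehicle and HSP990 mice, and to 0 to 0.0881 CPM in the control and HS mice of WT and R6/2. In WT and R6/2 the HS and HSP990 experiments therefore differ in Y-linked expression as well as in handling, and these cannot be told apart from the treatment when the responses are set against each other.

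Upstream sequence is shown for Id2, a SMAD target, and for Bmp4, the ligand with the largest HS response of the 10 genes, which was chosen after its values were seen. Each run holds the 250 bases before the RefSeq start site (build GRCm38.p6) on the gene's own strand, and each matched the mm9 build of the submitters exactly and once on its chromosome, outside any annotated exon. The Bmp4 run lies at chr14:47010345-47010594 and the Id2 run at chr12:25780958-25781207, both on the minus strand. Capitals mark GGCGCC, the GC-rich letters known for SMAD1 and SMAD5, and GTCT or its reverse AGAC, the short letters known for SMAD binding.
Bmp4: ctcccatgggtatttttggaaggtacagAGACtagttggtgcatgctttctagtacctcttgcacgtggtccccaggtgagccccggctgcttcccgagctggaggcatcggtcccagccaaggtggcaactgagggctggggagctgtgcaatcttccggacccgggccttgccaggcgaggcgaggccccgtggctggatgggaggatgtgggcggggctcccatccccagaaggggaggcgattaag
Id2: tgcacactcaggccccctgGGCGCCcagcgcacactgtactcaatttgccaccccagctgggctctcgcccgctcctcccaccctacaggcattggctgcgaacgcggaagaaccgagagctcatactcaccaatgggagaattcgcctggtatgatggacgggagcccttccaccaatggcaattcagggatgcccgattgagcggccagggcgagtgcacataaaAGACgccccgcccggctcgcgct

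Both strands were searched for these SMAD letters, for the heat shock letters GAANNTTC and for the KLF letters CACCC, and no match in capitals overlaps another. The Id2 run held 1 GGCGCC, 1 GTCT and 2 CACCC matches, and the Bmp4 run 1 GTCT match and none of the others. Of the 7 members with a promoter entry (Bmp4, Bmp6, Bmpr1a, Id2, Id3, Smad6 and Smad9), Bmpr1a, Id2 and Smad9 held GGCGCC, which 9.59% of all 32851 promoter windows of the same length held. GTCT was in the windows of all of these genes except Bmpr1a, with 3 matches in Bmp6 and 2 in Id3, and in 82.9% of all windows. CACCC was found in Bmpr1a, Id2, Id3, Smad6 and Smad9 and in 52.0% of all windows. GAANNTTC was found in none of the 7 windows and in 6.69% of all windows. The Bmp6, Bmpr1a and Id3 windows lie inside the mm9 gene coordinates given below, not upstream of them. All matches are descriptions of letters in short windows and name no binding site.

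The receptor gene was the most highly expressed of the members and Smad9 the least. Per kilobase of exon, Bmpr1a (NCBI gene 12166; mm9 chromosome 14, 35223920 to 35316527) had a mean level of 25.5 CPM per kb over the 24 libraries, with a range of 16.7 to 35.1. Id1 (15901; chromosome 2, 152561987 to 152563146) followed at 14.1 CPM per kb (6.74 to 20.1) and Id3 (15903; chromosome 4, 135699412 to 135701670) at 12.6 (7.21 to 18.6). These ranges overlap, so the order of Id1 and Id3 is not separated by the spread between libraries. Bmp6 (12161; chromosome 13, 38436995 to 38592183) had 5.69 CPM per kb (3.77 to 7.57), Bmp4 (12159; chromosome 14, 47003195 to 47010344) 4.72 (2.99 to 8.82) and Id2 (15902; chromosome 12, 25778666 to 25780957) 3.51 (1.5 to 8.73), again with overlapping ranges. The inhibitory SMAD genes followed, with Smad7 (17131; chromosome 18) at 2.93 CPM per kb (1.71 to 4.57) and Smad6 (17130; chromosome 9, 63800953 to 63869866) at 1.65 (0.558 to 2.77). Bmp2 (12156; chromosome 2, 133377895 to 133388621) was the scarcest of the ligands at 0.908 CPM per kb (0.338 to 1.4). Smad9 (55994; chromosome 3, 54559504 to 54605179) had 0.151 CPM per kb (0.0578 to 0.278) and only 8 to 59 counts a library, which leaves its fold changes with wide intervals. Bmp4, Bmp6 and Bmpr1a overlap genes annotated on the opposite strand, and it is not stated whether counting used strand. Id2 has a copy on the X chromosome that differs by 9.22% over 1163 of the 1270 bases of its transcript. The other 9 members had no such copy. The plot of CPM by library shows every value behind the comparisons that follow.

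**Figure D1:**
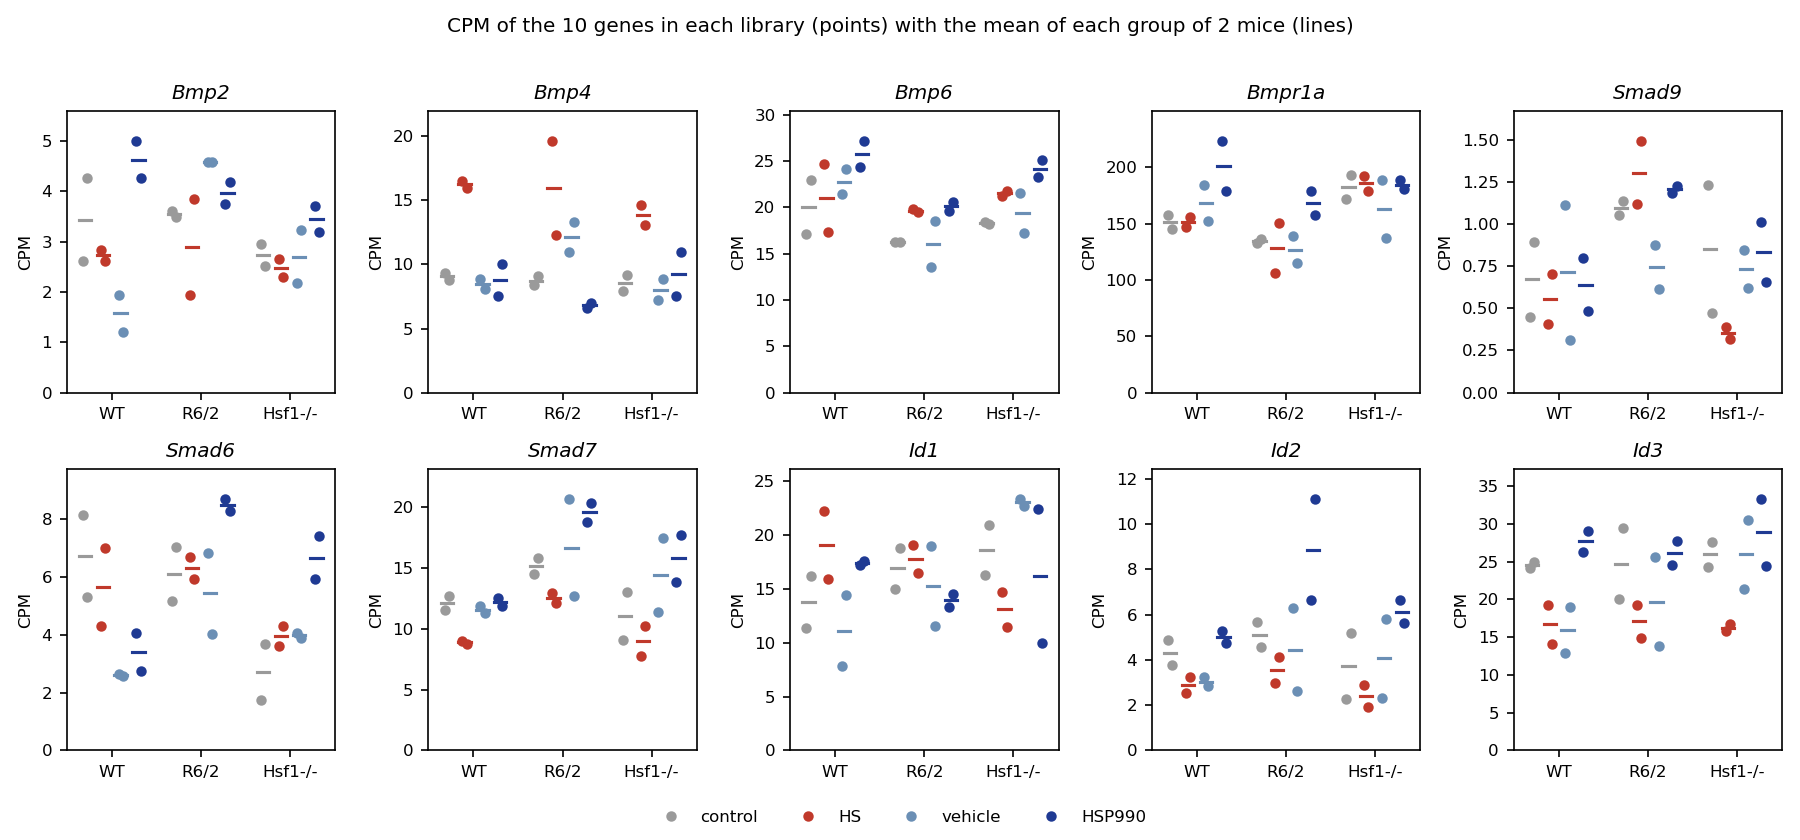
Level of each of the 10 genes in CPM (vertical axes, from 0) in every library (points, 2 mice a group) with the mean of each group (short lines), for WT, R6/2 and Hsf1-/- mice and 4 treatments (colours). The 6 HS libraries of Bmp4, from 12.27 to 19.62 CPM, sit above its 6 control libraries, and those of Id3, from 14.14 to 19.32 CPM, below theirs.

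HS raised Bmp4 and lowered Id3. Averaged over the 3 genotypes, 2 of the 10 members changed after HS (1 higher, 1 lower), against 6.14% of the 13754 genes tested (844 genes), by edgeR's quasi-likelihood F test (adjusted by Benjamini and Hochberg's method over all genes tested). The median log2 fold change of the members was -0.14, beside -0.01 over all genes tested, and 4 of 10 were above 0. Bmp4, a ligand known for its role in mesoderm formation, had 9.35 and 8.81 CPM in WT control mice and 16.56 and 16.01 CPM in WT HS mice. R6/2 mice had 8.37 and 9.07 CPM in control and 19.62 and 12.27 CPM in HS mice. Hsf1-/- mice had 7.92 and 9.17 CPM in control and 14.63 and 13.11 CPM in HS mice. All 6 HS mice lay above all 6 control mice, whichever genotype they had. The mean change was 1.75-fold (95% interval of the log2 value 0.53 to 1.08, adjusted p = 0.0012, edgeR).

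The increase of Bmp4 was of a like size in each genotype, although none of these comparisons of 2 mice with 2 passed the threshold in edgeR's fit of all 12 groups. With only the WT control and HS mice fitted, WT passed (log2 fold change 0.85, adjusted p = 0.015, edgeR). The log2 fold change was 0.84 in WT (adjusted p = 0.063, edgeR), 0.87 in R6/2 (adjusted p = 0.18, edgeR) and 0.70 in Hsf1-/- mice (adjusted p = 0.27, edgeR). The response of R6/2 differed from that of WT by 0.03 (interval -0.63 to 0.69) and that of Hsf1-/- by -0.14 (-0.81 to 0.52), and neither difference passed the test. The Bmp4 call on the mean was kept without any 1 of the 12 mice and under all 7 other settings tried. In bulk muscle, fewer cells of a type and less RNA per cell cannot be told apart. Of the 12 endothelial markers, 3 rose and 2 fell after HS, and their sum was 629.0 to 914.4 CPM in HS and 578.4 to 835.3 CPM in control mice. Their part in the Bmp4 result was not tested.

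Id3, which encodes an ID protein that binds E proteins and is abundant in endothelium, moved the other way. It had 24.10 and 25.00 CPM in WT control and 19.32 and 14.14 CPM in WT HS mice. R6/2 mice had 20.04 and 29.45 CPM in control and 19.32 and 14.85 CPM in HS mice. Hsf1-/- mice had 24.33 and 27.65 CPM in control and 15.80 and 16.73 CPM in HS mice. The 6 HS mice lay below the 6 control mice with no overlap, by a narrow margin in R6/2. The mean log2 fold change of Id3 was -0.59 (interval -0.93 to -0.25, adjusted p = 0.039, edgeR), with -0.55 in WT, -0.53 in R6/2 and -0.68 in Hsf1-/- mice. Bmp4 and Id3 were the only 2 of the 10 members whose HS and control libraries did not overlap, a pattern that 2.1% of all genes tested showed. The Id3 call was lost with the replicate block (adjusted p = 0.052, edgeR) and kept under the other 6 settings tried. It was kept without R6/2 control replicate 1, R6/2 HS replicate 1 or WT HS replicate 1, and lost without any 1 of the 9 other mice (adjusted p 0.063 to 0.13, edgeR).

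The other ID genes and the inhibitory SMAD genes did not pass the test after HS. Id2, like Id3 an inhibitor of E proteins, had 2.27 to 5.66 CPM in the 6 control mice (median 4.71) and 1.91 to 4.11 CPM in the 6 HS mice (median 2.93). These ranges overlap, and the mean log2 fold change was -0.58 (interval -1.15 to -0.01, adjusted p = 0.26, edgeR). Smad7, which blocks type I receptors, had 9.08 to 15.80 CPM in control (median 12.82) and 7.74 to 12.96 CPM in HS mice (median 9.60), a log2 fold change of -0.34 (-0.63 to -0.05, adjusted p = 0.19, edgeR). Id1, the ID gene most often used as a readout of BMP activity, had a median of 16.26 CPM in control and 16.16 CPM in HS mice. Its mean log2 fold change was 0.01, and the interval of -0.40 to 0.42 leaves room for a change of that size in either direction. Smad6 (0.11), Bmp6 (0.19), Bmp2 (-0.26), Bmpr1a (-0.01) and Smad9 (-0.44) did not pass either, and the interval was tightest for Bmpr1a (-0.22 to 0.20) and widest for Smad9 (-1.14 to 0.27).

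Within single genotypes no member passed the test after HS. In WT mice 0 of 10 were called by edgeR against 2.06% of all genes, 1 had an unadjusted p below 0.05, and DESeq2 called 1, Bmp4 (adjusted p = 0.013). In R6/2 mice edgeR called 0 of 10 against 0.0436% of all genes, 1 had an unadjusted p below 0.05, and DESeq2 again called Bmp4 (adjusted p = 0.03). In Hsf1-/- mice edgeR called 0 of 10 against 0.00727% of all genes, 2 had an unadjusted p below 0.05, and DESeq2 called 0.

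After HSP990 most members had higher mean levels than with vehicle, but none passed the test on the mean of the genotypes. Averaged over the 3 genotypes, 9 of the 10 members had a log2 fold change above 0 and their median was 0.28, beside 0.01 over all genes tested. None passed the adjusted threshold in edgeR (0 of 10, against 4.65% of all genes tested) or in DESeq2, while 6 had an unadjusted p below 0.05. These 6 were Id2 (log2 fold change 0.77), Smad6 (0.58), Bmp2 (0.57), Id3 (0.45), Bmpr1a (0.28) and Bmp6 (0.28), with adjusted p from 0.10 to 0.17 in edgeR. No member's HSP990 and vehicle libraries were fully apart, as they were for 1.32% of all genes tested.

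**Figure D2:**
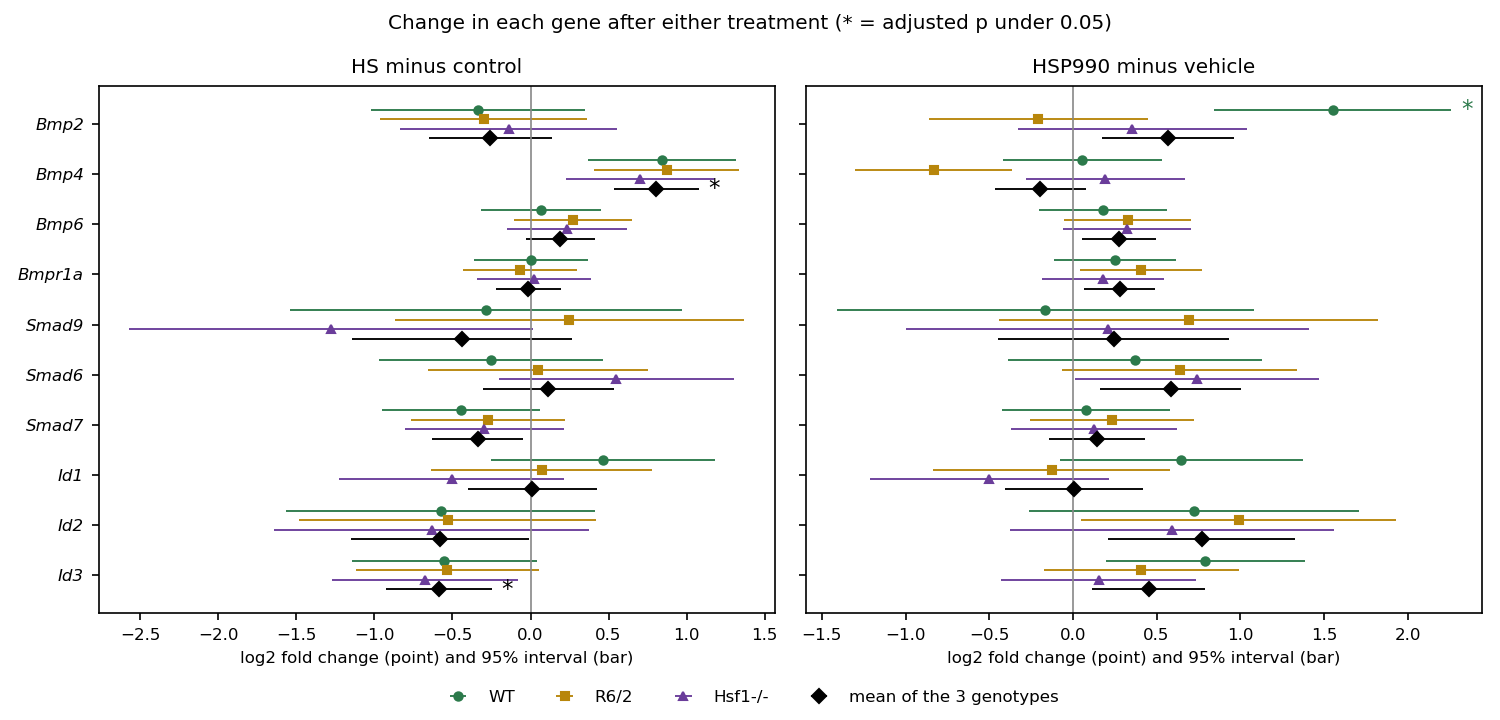
Log2 fold change after HS (left) or HSP990 (right) for each gene, with 95% intervals as bars, in WT, R6/2 and Hsf1-/- mice and as the mean of the 3 genotypes; a star marks an adjusted p under 0.05. After HS, Bmp4 lies right of 0 and Id3 left of 0 in all 3 genotypes, and after HSP990 the only star belongs to Bmp2 in WT mice.

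Bmp2, an osteogenic ligand also made by endothelium, was the 1 member that changed in a single genotype after HSP990. WT vehicle mice had 1.945 and 1.202 CPM and WT HSP990 mice 4.99 and 4.26 CPM. The increase was 2.93-fold (interval of the log2 value 0.84 to 2.26, adjusted p = 0.025, edgeR), and 1 of 10 members was called against 1.85% of all genes tested. The WT vehicle group had the lowest mean Bmp2 level of the 12 groups (1.574 CPM), while WT control mice had 2.61 and 4.25 CPM, within reach of the HSP990 values. The call was kept without WT vehicle replicate 1 but lost without WT vehicle replicate 2 (adjusted p = 0.38, edgeR), WT HSP990 replicate 1 (0.12) or WT HSP990 replicate 2 (0.085), and it was lost when only the groups compared were fitted (0.094). Of the 6 fibroblast markers 6 had a log2 fold change above 0 in WT and 0 passed the test in edgeR, and their sum was 1248 to 1271 CPM in WT HSP990 mice and 759.7 to 766.0 CPM in WT vehicle mice. The endothelial sum was 789.3 to 916.2 against 639.1 to 687.4 CPM (9 of 12 markers above 0). Of the pericyte and smooth muscle markers 6 of 7 were above 0, as were 6 of 6 leukocyte and 4 of 4 satellite cell markers. In each of these lists 0 markers were called in edgeR, and the sums did not overlap, with 2 mice against 2. No share of all genes was counted for such a separation. The part of these markers in the Bmp2 result was not tested. In R6/2 mice Bmp2 had 4.58 and 4.58 CPM with vehicle and 3.75 and 4.19 CPM with HSP990, and in Hsf1-/- mice 2.17 and 3.24 CPM against 3.71 and 3.20 CPM. The HSP990 response of R6/2 was lower than that of WT by 1.76 on the log2 scale (interval -2.72 to -0.80) and that of Hsf1-/- by 1.198 (-2.18 to -0.22), differences with adjusted p of 0.36 and 0.59 in edgeR.

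Id2, Id3 and Smad6 were among the members with the lowest unadjusted p after HSP990. Id2 had 2.31 to 6.30 CPM in the 6 vehicle mice (median 3.03) and 4.74 to 11.09 CPM in the 6 HSP990 mice (median 6.12). R6/2 vehicle replicate 1 (6.30 CPM) and Hsf1-/- vehicle replicate 2 (5.81 CPM) lay among the HSP990 values, so the ranges overlap. Its adjusted p was 0.12, and it was 0.046 without Hsf1-/- vehicle replicate 2 and 0.035 without R6/2 vehicle replicate 1 (edgeR). Id3 had 12.91 to 30.55 CPM with vehicle (median 20.23) and 24.48 to 33.27 CPM with HSP990 (median 27.00), and its adjusted p was 0.14, or 0.025 without R6/2 vehicle replicate 1 (edgeR). Smad6, which competes with receptor-regulated SMADs, had 2.56 to 6.83 CPM with vehicle (median 3.97) and 2.73 to 8.68 CPM with HSP990 (median 6.66). Id1 did not follow them, with a mean log2 fold change of 0.01 (interval -0.41 to 0.42), made of 0.65 in WT, -0.13 in R6/2 and -0.50 in Hsf1-/- mice. For Id3 (15.98 CPM), Smad6 (2.60 CPM) and Id1 (11.1 CPM), the WT vehicle group had the lowest mean of the 12 groups. WT control mice had means of 24.55, 6.72 and 13.79 CPM in the same order. Of the 12 endothelial markers 2 rose and 1 fell after HSP990 (25.0%, beside 4.65% of all genes tested). Their sum was 588.4 to 916.2 CPM with HSP990 and 626.1 to 872.0 CPM with vehicle. By genotype it was 789.3 to 916.2 CPM with HSP990 against 639.1 to 687.4 CPM with vehicle in WT. In R6/2 it was 588.4 to 809.1 against 626.1 to 643.0 CPM, and in Hsf1-/- 827.3 to 847.8 against 815.0 to 872.0 CPM. The part of these markers in the values of Id1, Id2, Id3 and Smad6 was not tested.

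Bmp4 did not pass the edgeR test after HSP990 in any genotype. In R6/2 mice it had 10.94 and 13.32 CPM with vehicle and 6.64 and 6.97 CPM with HSP990, a log2 fold change of -0.83 (interval -1.30 to -0.37) that had an adjusted p of 0.086 in edgeR and 0.016 in DESeq2. In WT mice it had 8.90 and 8.07 CPM against 7.53 and 10.07 CPM, and in Hsf1-/- mice 7.25 and 8.84 CPM against 7.51 and 10.99 CPM, which overlap. The R6/2 vehicle group had a mean Bmp4 level of 12.13 CPM, while the other control and vehicle groups had means of 8.05 to 9.08 CPM. In R6/2 mice 0 of 10 members passed in edgeR against 1.43% of all genes, with 3 at an unadjusted p below 0.05 and 1, Bmp4, called by DESeq2. In Hsf1-/- mice 0 of 10 passed against 0.218% of all genes, with 1 at an unadjusted p below 0.05 and 0 called by DESeq2.

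The responses to HS and HSP990 were then set against each other in 1 model, as the response to HS minus the response to HSP990. Averaged over genotypes, 3 of 10 members differed (1 higher after HS, 2 lower), against 7.58% of all genes tested, and 8 of 10 had a difference below 0. The members' median difference was -0.48 on the log2 scale, beside -0.03 over all genes tested. Bmp4 differed by 1.00 (interval 0.61 to 1.38, adjusted p = 0.0022, edgeR), Id3 by -1.04 (-1.52 to -0.56, adjusted p = 0.0084) and Id2 by -1.35 (-2.15 to -0.55, adjusted p = 0.036). The Bmp4 and Id3 calls were kept without any 1 of the 24 mice, and the Id2 call without any 1 of 9 of them, being lost without any 1 of the other 15 (adjusted p 0.05 to 0.091, edgeR). The difference for Id1 was 0.00 (-0.58 to 0.59). The Id3 difference draws on the WT vehicle group, which had the lowest Id3 mean of the 12 groups (15.98 CPM).

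By genotype, 1 of 10 members differed between the responses in WT mice, against 2.38% of all genes, and it was Bmp2 with -1.89 (interval -2.87 to -0.90, adjusted p = 0.041, edgeR). That call was kept without WT control replicate 1 or WT vehicle replicate 1 and lost without any 1 of the 6 other WT mice (adjusted p 0.084 to 0.22, edgeR), with the replicate block (0.055) and with only the WT groups fitted (0.063). Id3 differed by -1.345 in WT (adjusted p = 0.092, edgeR) and passed with only the WT groups fitted (adjusted p = 0.037, edgeR) and in DESeq2 (adjusted p = 0.029). In R6/2 mice, whose vehicle group had the high Bmp4 level given above, 1 of 10 differed, against 1.63% of all genes: Bmp4, by 1.71 (1.05 to 2.37, adjusted p = 0.0074, edgeR). It stayed called without any 1 of the 8 R6/2 mice but not when only the R6/2 groups were fitted (adjusted p = 0.096, edgeR). In Hsf1-/- mice, which were 10 weeks old in the HS and 8 weeks old in the HSP990 experiment, so that age and treatment cannot be told apart, 0 of 10 differed in edgeR and in DESeq2, against 0.145% of all genes, and 0 had an unadjusted p below 0.05. The values there were 0.51 for Bmp4 (-0.17 to 1.18), -0.83 for Id3 (-1.66 to 0.00) and -1.23 for Id2 (-2.62 to 0.17), of the same signs as the means.

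**Figure D3:**
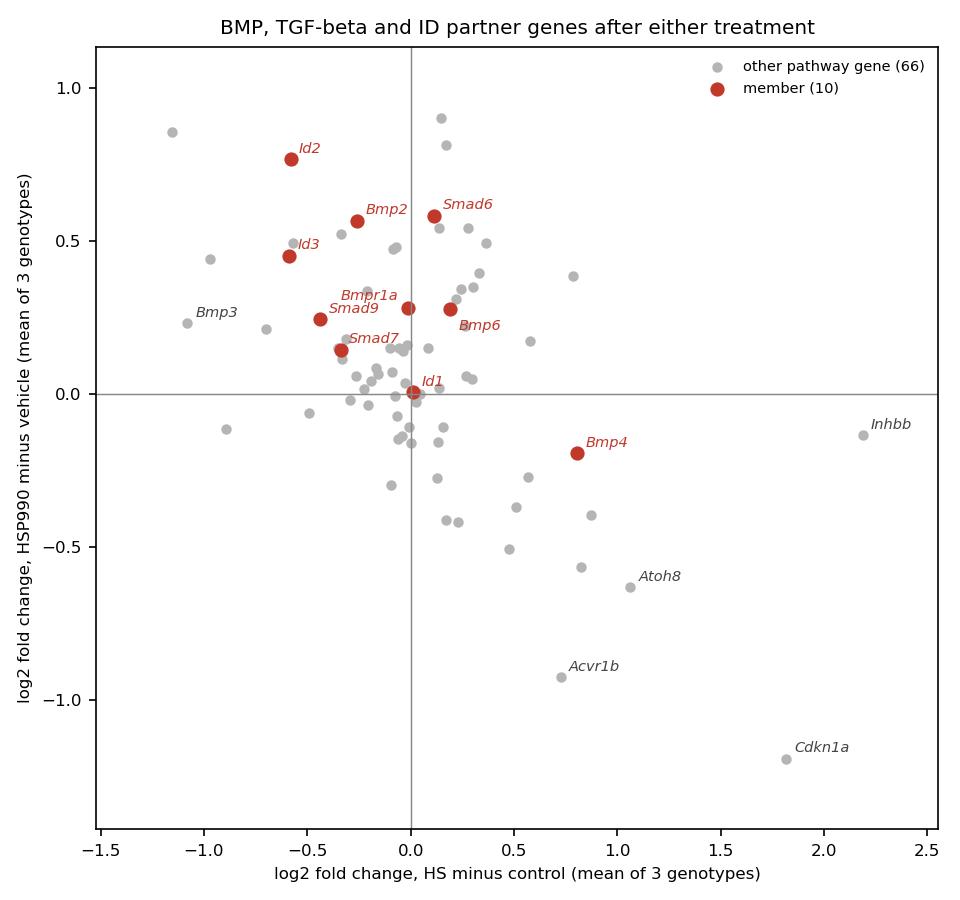
Mean log2 fold change over the 3 genotypes after HS (horizontal) and after HSP990 (vertical) for the 10 members (red) and 66 other genes of the BMP, TGF-beta and ID partner lists (grey) with a mean of at least 0.5 CPM. Bmp4 lies in the lower right with Atoh8 and Cdkn1a, and Id2 and Id3 in the upper left.

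The other genes of the pathway were taken from 5 lists chosen with earlier results of these data known, so the shares called are descriptions. The lists held 63 BMP genes, of which 52 were tested. After HS 2 rose and 5 fell on the mean of the genotypes, which is 13.5% of them beside 6.14% of all genes tested. After HSP990 2 rose and 4 fell, 11.5% beside 4.65% of all genes tested. Among receptors, Acvr2b, a type II receptor for BMPs and activins, fell by 0.89 on the log2 scale after HS (adjusted p = 0.0062, edgeR), Bmpr2, the type II BMP receptor, fell by 0.49 (adjusted p = 0.021) and Acvr1, a type I receptor, fell by 0.35 (adjusted p = 0.041). Among ligands, Bmp3, which counteracts other BMPs, fell by 1.08 after HS (adjusted p = 0.041, edgeR). Bmp8a, at 0 to 35 counts a library, was lower with HSP990 (0 to 0.45 CPM) than with vehicle (0.0942 to 1.25 CPM, adjusted p = 0.014, edgeR), and no fold is given because both R6/2 HSP990 libraries were at 0. Among SMADs, Smad1, a receptor-regulated SMAD of the BMP arm, rose by 0.49 after HSP990 (adjusted p = 0.046, edgeR).

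On the mean of the genotypes, the targets Atoh8 and Cdkn1a were raised by HS and lowered by HSP990. Atoh8, a basic helix-loop-helix factor gene induced by BMP in endothelium, had 7.21 to 17.73 CPM in control (median 8.87) and 11.48 to 36.95 CPM in HS mice (median 23.70). It had 6.31 to 23.04 CPM with vehicle (median 10.92) and 6.17 to 9.45 CPM with HSP990 (median 7.59). Its mean log2 fold change was 1.06 after HS (adjusted p = 0.00087, edgeR) and -0.63 after HSP990 (adjusted p = 0.035). Cdkn1a, which encodes the cell cycle inhibitor p21 and answers to many stress pathways besides BMP, had log2 fold changes of 1.82 (adjusted p = 0.0025, edgeR) and -1.19 (adjusted p = 0.044). After HSP990 Atoh8 had a log2 fold change of -1.28 in R6/2 (adjusted p = 0.028, edgeR), -0.41 in WT and -0.21 in Hsf1-/- mice, and only the first passed. Cdkn1a likewise passed only in R6/2 mice, with -2.66 (adjusted p = 0.026, edgeR) beside -0.89 in WT and -0.03 in Hsf1-/- mice. Neither gene's HSP990 response differed between R6/2 and WT past the threshold, as edgeR called 0 of all genes tested for that difference. Msx1, a homeobox target, fell by 0.70 after HS (adjusted p = 0.045, edgeR). Among the antagonists and modulators, Twsg1, a BMP binding protein, rose by 0.34 after HSP990 (adjusted p = 0.046, edgeR). Among the receptors and co-receptors, Neo1 fell by 0.30 after HSP990 (adjusted p = 0.0069, edgeR).

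In the list of the sister TGF-beta and activin arm, chosen in the same way, HS raised Inhbb, an activin subunit, by 2.19 on the log2 scale (adjusted p = 0.00038, edgeR). The type I receptor gene Acvr1b rose by 0.73 after HS (adjusted p = 0.00077, edgeR) and fell by 0.93 after HSP990 (adjusted p = 6.1e-05). Ccn2, a matricellular target, rose by 0.79 after HS (adjusted p = 0.0073, edgeR), and in all 4 of the 15 genes tested in this arm rose and 0 fell (26.7%, beside 6.14% of all genes). After HSP990 the activin subunit gene Inhba rose by 2.00 (adjusted p = 0.038, edgeR), and the ligand gene Tgfb2 and the receptor gene Tgfbr2 each rose by 0.54 (adjusted p = 0.00091 and 0.045), so that 3 rose and 1 fell (26.7%, beside 4.65% of all genes). Of the 7 partners of ID proteins and myogenic factors, 0 passed the edgeR test after HS, where 1 had an unadjusted p below 0.05, and after HSP990 only Tcf3, which encodes E proteins, rose (0.48, adjusted p = 0.04, edgeR). Between the HS and HSP990 responses 7 of the 52 other BMP genes differed (13.5%, beside 7.58% of all genes), 5 higher after HS and 2 lower, among them Cdkn1a (3.01, adjusted p = 0.00049, edgeR), Atoh8 (1.70, adjusted p = 0.00017), the SMAD regulator Tob2 (1.39, adjusted p = 0.021), Fst (0.84, adjusted p = 0.042), Twsg1 (-0.55, adjusted p = 0.015) and Acvr1 (-0.50, adjusted p = 0.034).

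Untreated R6/2 muscle differed from WT muscle in many genes, and 2 of the 10 members changed, Bmp2 upwards and Bmp6 downwards, against 30.5% of all genes tested (2075 higher, 2119 lower). With library size only the split over all genes was 8455 higher and 421 lower, and 9 members were called, all upwards. Here untreated means the control and vehicle mice together, with the difference averaged over both experiments (4 mice against 4). Bmp2 had 3.61, 3.49, 4.58 and 4.58 CPM in R6/2 and 2.61, 4.25, 1.945 and 1.202 CPM in WT mice (control mice first), which overlap. Its log2 fold change was 0.79 (interval 0.31 to 1.28, adjusted p = 0.014, edgeR), but the experiments were unlike each other, with 0.05 in the control mice and 1.54 in the vehicle mice (adjusted p = 0.0038). The difference between the experiments, a test added after the data had been seen, was 1.496 (0.53 to 2.46, unadjusted p = 0.0046, adjusted p = 0.75, edgeR). The vehicle value uses the same low WT vehicle mice as the HSP990 comparison above. The call was lost without WT control replicate 1 (adjusted p = 0.071, edgeR) or WT vehicle replicate 2 (0.077).

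Bmp6, an endothelial ligand that governs hepcidin in liver, had 16.23, 16.28, 13.51 and 18.56 CPM in untreated R6/2 and 17.13, 22.99, 21.40 and 24.12 CPM in untreated WT mice. Only 1 R6/2 mouse reached the WT range. The log2 fold change was -0.41 (interval -0.68 to -0.14, adjusted p = 0.024, edgeR), with -0.30 in control and -0.51 in vehicle mice. The direction depends on the scaling: with library size only, under which the all-gene median (log2) went from 0.05 to 0.66, the value was 0.20 (adjusted p = 0.16, edgeR). Relative to that median, Bmp6 stood at -0.46 under both scalings. The Bmp6 call did not hold once R6/2 control replicate 1 was left out (adjusted p = 0.063, edgeR), nor without WT control replicate 2 (0.13), R6/2 vehicle replicate 1 (0.11) or WT vehicle replicate 2 (0.083), nor with only the groups compared (0.061).

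The remaining members did not pass the test in untreated R6/2 muscle. Smad7 had 12.65 to 20.64 CPM in the 4 R6/2 mice and 11.28 to 12.65 CPM in the 4 WT mice, a log2 fold change of 0.42 (interval 0.07 to 0.78, adjusted p = 0.064, edgeR), and 0.58 (adjusted p = 0.015) without R6/2 vehicle replicate 2. Smad6 was higher in the vehicle mice (6.83 and 4.04 CPM in R6/2 against 2.65 and 2.56 CPM in WT, log2 fold change 1.06, adjusted p = 0.043, edgeR) and not in the control mice (5.18 and 7.04 CPM against 8.14 and 5.30 CPM, -0.14). Its difference between the experiments had an unadjusted p of 0.025 and an adjusted p of 0.90 in edgeR. Bmpr1a was at -0.29, Bmp4 at 0.23, and Id1, Id2, Id3 and Smad9 between 0.16 and 0.40. The members' median was 0.38 beside 0.05 over all genes tested. All 8 muscle fibre markers fell in R6/2 and summed to 39560 to 70340 CPM against 205000 to 233500 CPM in untreated WT mice, and 2 of 5 adipocyte markers fell. Their part in the members' values was not tested.

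**Figure D4:**
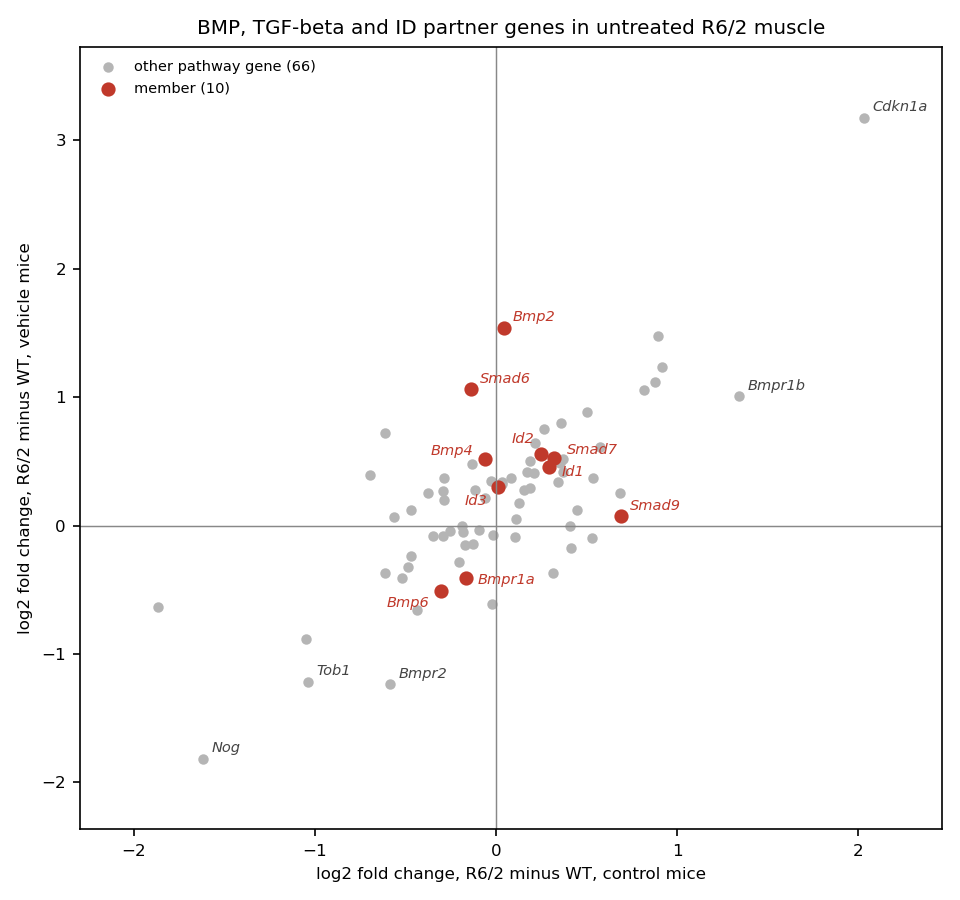
Log2 fold change of untreated R6/2 against WT in the control mice (horizontal) and in the vehicle mice (vertical) for the 10 members (red) and 66 other pathway genes (grey) with a mean of at least 0.5 CPM. Bmp2 and Smad6 lie near 0 horizontally and above 1 vertically, while Nog lies below -1 on both axes.

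Nog, which encodes the secreted BMP antagonist noggin, was lower in untreated R6/2 than in WT muscle. Of the 52 other BMP genes tested, 10 were higher and 5 lower in R6/2 (28.8%, beside the 30.5% of all genes). Nog had 2.71 to 3.36 CPM in the 4 R6/2 mice and 7.99 to 13.00 CPM in the 4 WT mice and fell by 1.715 (adjusted p = 3.2e-06, edgeR). These ranges do not overlap, and no share of all genes was counted for 4 mice against 4. The activin and BMP binding protein genes Fstl3 and Fst rose by 1.18 (adjusted p = 0.021, edgeR) and 0.58 (adjusted p = 0.045).

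Receptor genes of the pathway changed in both directions in R6/2. Bmpr1b, a type I receptor gene, rose by 1.18 (adjusted p = 0.00041, edgeR), Neo1 by 0.595 (adjusted p = 1.8e-05), Acvr1 by 0.51 (adjusted p = 0.0039) and the co-receptor gene Tgfbr3 by 0.34 (adjusted p = 0.03), while Bmpr2 fell by 0.91 (adjusted p = 0.00021). Acvr1 had 0.26 in control (adjusted p = 0.34, edgeR) and 0.75 in vehicle mice (adjusted p = 0.0052), and Bmpr2 -0.58 (adjusted p = 0.077) and -1.23 (adjusted p = 0.00066). The differences between the experiments, 0.49 and -0.65, did not pass (adjusted p = 0.95 and 0.94, edgeR). Among the SMAD regulators, Tob1, an antiproliferative protein gene, fell by 1.13 (adjusted p = 1.9e-05, edgeR) and Smurf2, a ubiquitin ligase of SMADs and receptors, fell by 0.49 (adjusted p = 0.0067), while Ski, a SMAD corepressor gene, rose by 0.43 (adjusted p = 0.00032) and Smurf1 by 0.24 (adjusted p = 0.023). Of the target genes, Cdkn1a rose by 2.61 (adjusted p = 0.00016, edgeR) and Atoh8 by 1.00 (adjusted p = 0.0011). In the TGF-beta arm, the ligand genes Tgfb3 and Tgfb1 rose by 0.93 (adjusted p = 8.8e-06, edgeR) and 0.69 (adjusted p = 0.017), and Smad3 fell by 0.96 (adjusted p = 0.003). Of the ID partners, Myog, the myogenic factor myogenin, rose by 1.08 (adjusted p = 0.036, edgeR), and the E protein genes Tcf12 and Tcf4 rose by 0.42 (adjusted p = 0.0003) and 0.39 (adjusted p = 0.0018). All these R6/2 values are under TMM scaling. With library size only, the all-gene median (log2) went from 0.05 to 0.66. The direction of small falls such as that of Smurf2 may therefore depend on the scaling, as it did for Bmp6.

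In untreated Hsf1-/- muscle, 0 of the 10 members differed from WT in edgeR or in DESeq2, against 0.974% of all genes tested. Only Id1 had an unadjusted p below 0.05. It had 16.32, 20.89, 23.31 and 22.71 CPM in Hsf1-/- and 11.38, 16.20, 7.82 and 14.39 CPM in WT mice. These values lie apart only by the narrow margin between 16.20 and 16.32 CPM. No share of all genes was counted for 4 mice against 4. The log2 fold change of Id1 was 0.74 (interval 0.23 to 1.25, adjusted p = 0.17, edgeR). Endothelial markers summed to 694.3 to 872.0 CPM in untreated Hsf1-/- and 635.7 to 687.4 CPM in untreated WT mice, with 11 of 12 above 0 in log2 fold change. Pericyte and smooth muscle markers summed to 428.1 to 565.6 against 310.9 to 382.9 CPM, with 7 of 7 above 0. No marker of these lists passed the test in edgeR (3 and 5 had an unadjusted p below 0.05). Neither sum overlaps, the endothelial one by a narrow margin, and the part of these markers in the Id1 values was not tested. Smad6 had fold changes of opposite sign in the experiments, with 1.75 and 3.69 CPM in Hsf1-/- against 8.14 and 5.30 CPM in WT control mice (log2 fold change -1.31, adjusted p = 0.067, edgeR) and 4.05 and 3.90 CPM against 2.65 and 2.56 CPM in vehicle mice (0.61, adjusted p = 0.65). The difference between the experiments was 1.92 (0.86 to 2.98, unadjusted p = 0.0014, adjusted p = 0.14, edgeR). WT control and Hsf1-/- control mice also differ in Y-linked expression, while the vehicle mice of both genotypes expressed these genes. Of the other BMP genes 1 of 52 changed, Nbl1, a BMP antagonist gene, with a log2 fold change of -0.61 (adjusted p = 0.044, edgeR), made of -1.16 in control mice (adjusted p = 0.0083) and -0.06 in vehicle mice (adjusted p = 0.96). Bmpr2 differed between the experiments past the threshold, by -1.92 on the log2 scale (interval -2.54 to -1.30, adjusted p = 0.017, edgeR). It had 0.86 in control mice (adjusted p = 0.045, edgeR) and -1.06 in vehicle mice (adjusted p = 0.077). Like that for Bmp2 in R6/2 mice, every test of a difference between the experiments was devised once results were known. Hsf1-/- mice were 10 weeks old in the control and 8 weeks old in the vehicle group. WT control and vehicle mice differed in Y-linked expression, and handling differed between the experiments. The Bmpr2 difference cannot be told apart from these, and their part in it was not tested.

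No member's response to either treatment differed between genotypes past the threshold. The HS response of R6/2 minus that of WT had 0 of 10 members called against 0.0727% of all genes, with 0 at an unadjusted p below 0.05. The HSP990 response of R6/2 minus that of WT had 0 of 10 called against 0.0% of all genes, where 981 genes had an unadjusted p below 0.05 in edgeR and DESeq2 called 49, and the 2 members at an unadjusted p below 0.05 were Bmp2 and Bmp4. The HS response of Hsf1-/- minus that of WT had 0 of 10 called against 0.16% of all genes, with 0 at an unadjusted p below 0.05. The HSP990 response of Hsf1-/- minus that of WT had 0 of 10 called against 0.422% of all genes, with 2, Bmp2 and Id1, at an unadjusted p below 0.05. DESeq2 called 0 of the 10 members in each of these 4 comparisons. For Id1 the HSP990 response was lower in Hsf1-/- than in WT by 1.15 on the log2 scale (interval -2.16 to -0.13, adjusted p = 0.66, edgeR).

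The members did not share 1 pattern over the 12 groups. Over the group means of log2(CPM + 0.5), Id2 was most like Smad7 (Pearson's r 0.88) and like Id3 (0.76) among the members, and Bmp6 like Bmpr1a (0.75), while Bmp4 ran against Id3 (-0.73) and Id1 had no r above 0.37 with any other. Spearman's rho for the named pairs, in the same order, was 0.85, 0.82, 0.75 and -0.42. Among 11102 genes with a mean of at least 1 CPM, those most like Id1 were Pllp (0.87), Scrn1 (0.80), Ppp1r14a (0.78), Sfi1 (0.76) and Pa2g4 (0.72). For Bmp4, looked up after its values had been seen, they were Pttg1ip (0.98), Maff (0.97), Il4ra (0.96), Sphk1 (0.95) and Tes (0.94). Spearman's rho was 0.61 (Sfi1) to 0.80 (Pa2g4) for the genes like Id1, and 0.65 (Tes) to 0.95 (Pttg1ip) for those like Bmp4. These are descriptions over 12 points that share libraries, depth and the TMM scaling, and the 24 mice behind them.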

How the data were processed

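Poly(A) RNA of quadriceps femoris was made into strand-specific libraries and sequenced as read pairs. Reads were mapped by the authors with Bowtie (mm9), and the deposited values are unnormalized counts per gene. The counting program, annotation and use of strand are not given in the sources used here. NCBI gene numbers were matched to symbols (18594 of 18669) and to GENCODE M1 coordinates on mm9 (18152), which also gave exon lengths. The test kept 13754 genes, those reaching 2 counts in 10 or more libraries. Counts were scaled with TMM and fitted as 12 groups with edgeR 4.0.16 quasi-likelihood tests (R 4.3.3, limma 3.58.1, 12 residual degrees of freedom), with Benjamini-Hochberg adjustment within each of 18 comparisons and a threshold of 0.05. Intervals are 95%. With 2 mice a group, the spread was shared by all 12 groups. Whether the 2 mice of a group were housed or processed apart is not stated, so p-values measure the spread between these samples. The chi-square per degree of freedom between them was 20.25 to 115.5, so no pair agreed within sampling noise. It was 56.59 to 115.5 in R6/2, 25.56 to 35.32 in WT and 20.25 to 83.08 in Hsf1-/- groups. The spread shared by all groups does not follow this difference between genotypes. The members and lists were chosen with earlier results of these data known. Other genes were named by a rule: up to 5 called genes with the largest change per list group and comparison, and the 5 genes most like Id1. Some genes that met it are not reported here, in the text or the plots, and remain in the counts. Copies in the genome were searched with minimap2 2.31-r1302. The procedure was tested on simulated data. Alternatives were DESeq2 1.42.0, a replicate block, fitting only the groups compared, scaling by RLE or by library size only, testing unfiltered genes or those kept by filterByExpr, and leaving out each mouse.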

Additional observations from a re-analysis of the deposited data

How the results depend on the processing

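Fitting only the groups compared gave 1 member for HS in WT, 0 for HSP990 in WT, 1 for untreated R6/2 against WT and 0 for HS minus HSP990 in R6/2, gave Id3 in place of Bmp2 for HS minus HSP990 in WT, and could not be fitted apart for the mean of HS minus HSP990, which uses all groups. DESeq2 gave 1 for HS in WT, 1 for HS in R6/2, 1 for HSP990 in R6/2 and 2 for HS minus HSP990 in WT. Scaling by library size only gave 9 for untreated R6/2 against WT and 5 for the mean of HS minus HSP990, and turned Bmp6 in untreated R6/2 muscle from -0.41 to 0.20. Same-numbered mice did not deviate together in general (median r -0.02 over 66 pairs of groups, range -0.333 to 0.346, over 0.1 in 10). Pairing between particular groups was not tested. With a replicate block, 1 member in place of 2 was called for the mean HS response (Id3 had an adjusted p of 0.052 in edgeR) and 0 in place of 1 for HS minus HSP990 in WT, and no other count of members changed. Leaving out 1 mouse gave 0 to 1 members for HSP990 in WT, 0 to 1 for HS in R6/2, 1 to 2 for the mean HS response, 0 to 2 for the mean HSP990 response, 0 to 3 for untreated R6/2 against WT, 0 to 1 for HS minus HSP990 in WT and 2 to 4 for its mean. Over all genes tested, DESeq2 called 542 in place of 283 for HS in WT, 127 in place of 6 in R6/2 and 161 in place of 1 in Hsf1-/-, and for HSP990 542 in place of 255, 376 in place of 197 and 142 in place of 30, 970 in place of 639 on its mean, and 369 in place of 134 for untreated Hsf1-/- against WT. For HS minus HSP990 DESeq2 called 648 in place of 328 in WT, 442 in place of 224 in R6/2 and 179 in place of 20 in Hsf1-/-. Its genotype differences were 34 in place of 10 and 40 in place of 22 for HS, and 49 in place of 0 and 118 in place of 58 for HSP990. The HS count in Hsf1-/- was 6 with RLE size factors, 9 with the replicate block and 28 with no filter, and in R6/2 it was 13 with no filter and 3 with library size only. Library size only also gave 8876 in place of 4194 for untreated R6/2 against WT and 11 in place of 20 for HS minus HSP990 in Hsf1-/-. With only the groups compared, the counts over all genes were 598 for HS in WT, 10 in R6/2 and 98 in Hsf1-/-, 158, 8 and 0 for HSP990 in the same order, 596, 23 and 14 for the difference between them, and 0 and 44 (HS) and 0 and 24 (HSP990) for R6/2 and Hsf1-/- minus WT. The causes were not tested. Depth limits Smad9 most, with 8 to 59 counts a library.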
